A study of Rattus norvegicus with 6 samples.

Results

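The tumour necrosis factor (TNF) superfamily consists of ligands, most of them trimeric membrane proteins that can be shed, and of their receptors. Its genes were taken here as all platform gene symbols of the Tnfsf and Tnfrsf series together with Tnf, Lta, Ltb, Ltbr, Fas, Faslg, Ngfr, Cd40, Cd40lg, Cd27, Cd70, Eda, Edar and Eda2r. On the array 34 of these genes had a named probe set, 20 receptors and 14 ligands, out of 15037 genes measured in all. Each member had 1 probe set, so the choice of the brightest one per gene decided nothing. Another 10 symbols of the RefSeq gene table that fit the same names lacked a named probe set on the platform and are left out, not analysed here: Eda, Eda2r, Tnfrsf10b, Tnfrsf13b, Tnfrsf13c, Tnfrsf22, Tnfrsf26, Tnfsf13b, Tnfsf18 and Tnfsf8.

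The cells were rat tracheal basal cells, the stem cells of the airway lining, obtained by scraping the tracheas of wild-type Sprague Dawley males of 12 weeks. Cells from 3 groups of 3 pooled rats gave 3 lines, and every line was divided at isolation between EpiX and BEGM, both culture media for epithelial cells. RNA was harvested at day 8 and hybridised to Affymetrix arrays, 3 arrays of EpiX cultures and 3 of BEGM cultures. Neither medium is labelled as a control, no untreated tissue was measured, and differences are given as EpiX minus BEGM.

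Ligand binding brings receptor tails together. Receptors with a death domain, such as Tnfrsf1a, Fas, Tnfrsf21, Tnfrsf25, Ngfr and Edar, recruit adaptors such as Tradd, Fadd or Edaradd, while most other members with a cytoplasmic tail bind TRAF proteins directly. Depending on the complex formed, the signal runs to NF-kB and JNK kinases and to survival and inflammatory genes, or to caspases and cell death. In airway epithelium TNF is best known as an inducer of chemokines, and Ngfr is a classical surface marker of basal cells.

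The deposited values are signals per probe set, taken as log2, so that a difference of 1 is a 2-fold change if the base is indeed 2. Signals of different probe sets are not calibrated to each other, so tests compare 1 gene between arrays. Only 2 rough limits are applied across probe sets: the lower quartile of all gene means, 4.5, called the dim limit, and the same array's median over its intron control probe sets, which lies higher. The median gene signal was 6.90 to 6.93 on the EpiX arrays and 6.98 to 7.13 on the BEGM arrays, and that of the intron control probe sets was 5.24 to 5.56 in EpiX and 5.11 to 5.29 in BEGM. On the first principal component, with 69.7% of the variance, the EpiX arrays scored -53.9, -47.1 and -34.2 and the BEGM arrays 7.24, 54.8 and 73.2. BEGM array 1 thus stood apart from the other BEGM arrays, and results are also given without it where it mattered. All 10 basal cell markers examined, Tp63 and Krt15 among them, were above the intron control median on all 6 arrays. Ngfr, counted with the members and not among these markers, was above it on no array. Of the members, 8 were above it on all 6 arrays and 17 on none, 8 receptors and 9 ligands, and a difference that rests on signals under it may understate the change in RNA. Ranges and sums over marker lists describe the arrays and are not levels of a cell type. The bulk RNA cannot tell fewer cells of a type from less RNA per cell.

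Among the 34 members, 2 receptors were higher in EpiX, Tnfrsf18 and Tnfrsf1a, and 1 receptor was lower, Tnfrsf1b, by limma at a Benjamini-Hochberg adjusted p under 0.05 over all 15037 genes. Over all genes 2.63% were called higher and 3.15% lower, together 5.78%. The 3 called members made up 8.82%, a count too small to set apart from the share over all genes. None of the 14 ligands was called, with 1 ligand at an unadjusted p under 0.05. The median difference was -0.12 over the members and 0 over all genes. This fit did not use the sample number, which was taken as marking the line. With the number as a block 1 member was called higher, Tnfrsf18, and 2 lower, Tnfrsf1b and Tnfrsf11b.

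The promoters of both TNF receptors are shown because these genes, Tnfrsf1a and Tnfrsf1b, were called in opposite directions. The sequences are the 250 bases before the annotated start, 5′ to 3′ on the gene's strand, from RefSeq build GRCr8. Tnfrsf1a lies on the plus strand (chr4:159836869-159837118) and Tnfrsf1b on the minus strand (chr5:162387412-162387661). Capitals mark matches, on either strand, to an AP-1 motif (TGANTCA), a GC box (GGGCGG), a TEAD motif (GGAATG) or the kappaB consensus.
Tnfrsf1a: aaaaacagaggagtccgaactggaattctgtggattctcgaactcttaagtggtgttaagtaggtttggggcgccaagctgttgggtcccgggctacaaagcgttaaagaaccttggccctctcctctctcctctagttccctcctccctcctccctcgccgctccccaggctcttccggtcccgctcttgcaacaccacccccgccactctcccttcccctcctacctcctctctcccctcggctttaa
Tnfrsf1b: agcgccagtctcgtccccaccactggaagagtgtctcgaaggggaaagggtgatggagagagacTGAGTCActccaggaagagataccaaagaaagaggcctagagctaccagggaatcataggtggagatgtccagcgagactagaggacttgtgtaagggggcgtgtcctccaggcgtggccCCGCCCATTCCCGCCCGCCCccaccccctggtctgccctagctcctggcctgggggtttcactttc

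The Tnfrsf1b window held 1 AP-1 match, 186 to 180 bases before the start, 3 GC boxes between 66 and 47 bases before it and 1 TEAD match at 61 to 56 bases that shares its outer bases with GC boxes. The Tnfrsf1a window held no match to any of the 4 motifs, which says only that these letters are not in it. Of 33469 rat promoter windows of this length, 6.34% held the AP-1 motif, 30.5% a GC box, 12.1% the TEAD motif and 3.54% the kappaB consensus. Of the 24 members with a window in the table, 3 held an AP-1 match, 13 a GC box, 6 a TEAD match and 4 a kappaB match. The kappaB matches were in the windows of Tnfsf14, Ltb, Tnfrsf8 and Lta, none of them called between the media.

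The receptors that rose in EpiX differed in size of effect and in spread. Tnfrsf18, known as GITR, is a co-stimulatory receptor best known from regulatory T cells. It was at 7.28, 7.54 and 7.57 on the EpiX arrays 1, 2 and 3, against 5.40, 5.70 and 5.64 on the BEGM arrays. Every EpiX array lay above every BEGM array, and arrays within a medium lay within 0.3 of each other. Tnfrsf18 was higher in EpiX by 1.88 ± 0.16 (SE, n = 3 per medium; adjusted p = 0.00268), a 3.69-fold difference. The BEGM signals lay above the intron control medians of their arrays, 5.11, 5.16 and 5.29, but close to them, so the fold is rough. The 3 same-numbered pairs of arrays gave 1.88, 1.84 and 1.93. The call ended without both arrays of number 2 (adjusted p = 0.189 by limma) and held without any single array, at adjusted p-values up to 0.0308. Its ligand Tnfsf18 was not analysed here.

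Tnfrsf18 borders Tnfrsf4 in the RefSeq gene order, with 0 protein-coding genes between them on chromosome 5. Tnfrsf4, the co-stimulatory receptor OX40, was at 4.77, 4.42 and 5.34 in EpiX and at 4.97, 5.44 and 4.71 in BEGM, so the media overlapped. The T and B cell markers did not move with Tnfrsf18: their mean signal over 9 genes was 4.24 to 4.26 in EpiX and 4.25 to 4.28 in BEGM, and the log2 of their summed signal was 7.64 to 7.66 in EpiX and 7.61 to 7.79 in BEGM. Of these 9 genes 0 were called by limma, 0 had an unadjusted p under 0.05, and 8 had a mean signal under the dim limit of 4.5 and no array above the intron control median. No detection calls were at hand. The exception was Cd2, at 6.05 ± 0.03 in EpiX and 6.16 ± 0.34 in BEGM (SD, n = 3 each). With 8 of the 9 markers under these limits, their mean had little room to move. The part of these markers in the Tnfrsf18 result was not tested.

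Tnfrsf1a encodes the death-domain TNF receptor TNFR1, which is found on most cell types. Its signals were 13.26, 13.52 and 13.50 in EpiX and 12.67, 12.29 and 12.84 in BEGM. The groups did not overlap, and the difference was 0.83 ± 0.18 (SE, n = 3 per medium; adjusted p = 0.0499), a 1.77-fold difference. This call lay just under the threshold. With the sample number as a block the adjusted p by limma was 0.0598. The call also ended without EpiX array 1, 2 or 3 (adjusted p = 0.109, 0.193 and 0.127) and without BEGM array 2 or 3 (0.133 and 0.0566). The difference within same-numbered pairs was 0.58, 1.23 and 0.66. Some basal cell markers moved in the same direction: 5 of 10 rose, against 2.63% of all genes, and 0 fell. The number was 3 with BEGM array 2, EpiX array 1 or EpiX array 2 left out, and 0 without number 2, where 0 genes were called over all. Krt15, Aqp3, Bcam, Tp63 and Dapl1 rose, by 4.12, 4.09, 3.11, 2.15 and 1.34. Krt14, Krt17, Itga6 and Snai2 overlapped between the media, with differences of 0.29, 0.18, 0.16 and 0.65. The mean signal over the 10 was 14.25 to 14.41 in EpiX and 12.42 to 12.89 in BEGM. The log2 of their summed signal was 19.05 to 19.09 in EpiX and 18.40 to 18.81 in BEGM. Their part in the Tnfrsf18 and Tnfrsf1a results was not tested.

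Tnfrsf21, known as DR6, is another death-domain receptor, and it was singled out after its values were seen. It was at 11.90, 11.94 and 11.74 in EpiX and at 11.48, 10.84 and 10.39 in BEGM, again with no overlap. Its difference of 0.96 ± 0.27 (SE, n = 3 per medium) did not pass (adjusted p = 0.0929 by limma, 95% interval 0.32 to 1.60). BEGM array 1 was the BEGM array nearest to EpiX, and without it the difference was 1.25 (adjusted p = 0.00864). That fit also called more genes over all, 2089 against 869. Without any other single array Tnfrsf21 did not pass, at adjusted p-values of 0.163 to 0.276 by limma.

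**Figure D1:**
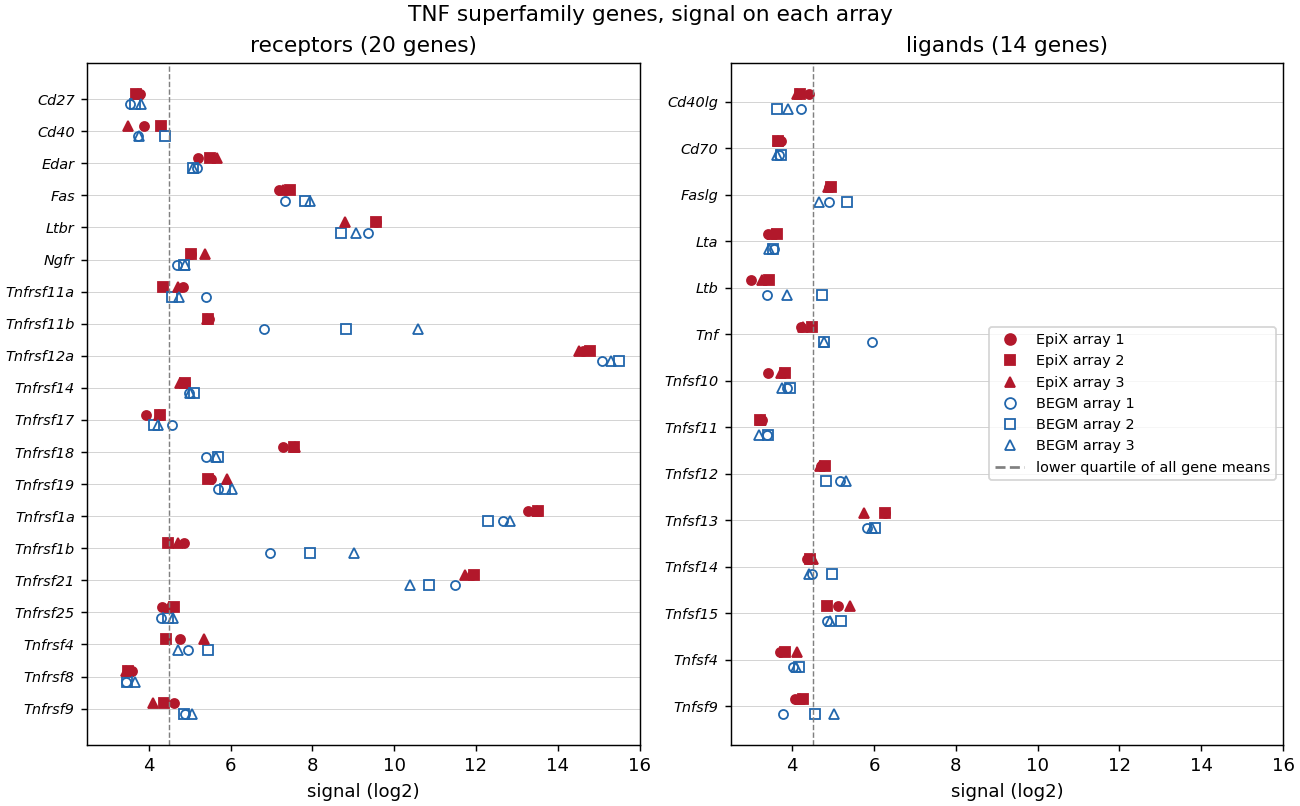
Signal (log2) of the 20 receptors and 14 ligands on each array, EpiX as filled and BEGM as open symbols, with the sample number as the symbol's shape and the dim limit of 4.5 as a dashed line. Tnfrsf18, Tnfrsf1a and Tnfrsf21 lie higher in EpiX, Tnfrsf1b, Tnfrsf11b and Tnfrsf12a lower, and most ligands lie near the dim limit in both media.

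Tnfrsf1b and Tnfrsf11b were the members with the largest differences, and both were lower in EpiX. Tnfrsf1b encodes TNFR2, which lacks a death domain and responds mainly to membrane-bound TNF. It was at 4.87, 4.47 and 4.71 on the EpiX arrays 1, 2 and 3, against 6.97, 7.95 and 9.02 on the BEGM arrays. All EpiX signals were under the intron control median of their array and all BEGM signals above it, with a range of about 2 log2 units among the BEGM arrays. Tnfrsf1b was lower in EpiX, with a difference of -3.29 ± 0.47 (SE, n = 3 per medium; adjusted p = 0.0139). With no EpiX array above that median, no fold is given. The pairs gave -2.10, -3.48 and -4.31. The call ended when BEGM array 2 was left out (adjusted p = 0.0744), and likewise for EpiX array 1 (0.0598) and EpiX array 2 (0.081).

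Tnfrsf8, the receptor CD30 of activated lymphocytes, is the next protein-coding gene to Tnfrsf1b in the RefSeq order. It was under the dim limit on every array, with means of 3.50 ± 0.08 in EpiX and 3.53 ± 0.12 in BEGM (SD, n = 3 each).

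Tnfrsf11b encodes osteoprotegerin, a secreted decoy receptor that binds the RANK ligand Tnfsf11. It was at 5.48, 5.46 and 5.43 in EpiX and at 6.82, 8.83 and 10.58 in BEGM. The EpiX arrays differed by less than 0.1, whereas BEGM arrays 1 and 3 differed by more than 3 log2 units. Of the EpiX arrays 2 were above the intron control median, by less than 0.3, and 1 was under it. The difference of -3.29 ± 0.83 (SE, n = 3 per medium) did not pass in the fit by medium alone (adjusted p = 0.0709, 95% interval -5.25 to -1.32). With the sample number as a block it passed (adjusted p = 0.0455), as it did without BEGM array 1, where it was -4.25 (adjusted p = 0.00237). Without any other single array it did not pass, at adjusted p-values of 0.0765 to 0.217 by limma. Of 17 alternative fits 5 gave it a call and 12 did not. The pairs gave -1.34, -3.36 and -5.15. Within osteoprotegerin's own axis, its ligand Tnfsf11 had means of 3.23 ± 0.03 in EpiX and 3.32 ± 0.11 in BEGM, and the receptor RANK, Tnfrsf11a, 4.64 ± 0.26 and 4.90 ± 0.43 (SD, n = 3 each). Tnfsf11 was below the dim limit on all 6 arrays, and neither gene separated the media.

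Fibroblast markers moved with both genes. Of 11 measured markers, 7 were lower on every EpiX array than on any BEGM array, against 14.5% of all genes, while 0 were called by limma and 5 had an unadjusted p under 0.05. With the sample number as a block 3 markers were called lower, and with BEGM array 1 or BEGM array 3 left out 6 and 2 were. Their mean signal was 5.68, 5.65 and 6.09 on the EpiX arrays and 6.57, 7.29 and 9.71 on the BEGM arrays. This is the same order among BEGM arrays as for Tnfrsf1b and Tnfrsf11b. The first principal component over all genes also ordered the BEGM arrays this way, at 7.24, 54.8 and 73.2. The order is therefore not particular to these genes. The log2 of the summed fibroblast marker signal was 9.89 to 10.48 in EpiX and 10.88 to 14.35 in BEGM. Of the defining collagens, Col1a1 averaged 5.51 in EpiX and 9.37 in BEGM, and Col1a2 was at 6.12, 6.42 and 6.33 in EpiX and at 8.19, 9.45 and 12.35 in BEGM. Postn and Pdgfrb were under the dim limit in EpiX, at means of 3.83 and 3.85, and at 5.41 and 6.80 in BEGM. The part of these markers in the Tnfrsf1b and Tnfrsf11b results was not tested.

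Myeloid cells also carry TNFR2, and endothelial cells carry it as well. The 12 myeloid markers had a mean signal of 4.72 to 4.79 in EpiX and 4.62 to 4.80 in BEGM, and 8 were under the dim limit, among them Ptprc, Csf1r, Itgam and Adgre1. Of the 12, 9 were above the intron control median on no array, and 2, Cd68 and Lyz2, on all 6. Cd68 was at 11.36, 11.08 and 9.17 in EpiX and at 8.65, 9.62 and 10.22 in BEGM, with overlap. Lyz2 averaged 6.01 in EpiX and 5.59 in BEGM, and neither was called. The log2 of their summed signal was 9.73 to 11.47 in EpiX and 9.32 to 10.48 in BEGM. The 9 endothelial markers had a mean of 4.46 to 4.65 in EpiX and 4.83 to 4.99 in BEGM, with a log2 summed signal of 7.81 to 8.03 in EpiX and 8.43 to 9.10 in BEGM. Of them 4 were dim, among them Vwf and Tie1, and 0 were called by limma. The 2 with an unadjusted p under 0.05 were both lower in EpiX. Esam was at 6.33, 5.87 and 6.14 in EpiX and at 6.87, 8.44 and 7.57 in BEGM (difference -1.51, adjusted p = 0.0685), with no overlap. Tek was at 4.10, 4.54 and 4.95 in EpiX and at 6.14, 4.84 and 5.29 in BEGM (difference -0.90, adjusted p = 0.209 by limma), with overlap. The part of these markers in the Tnfrsf1b result was not tested.

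**Figure D2:**
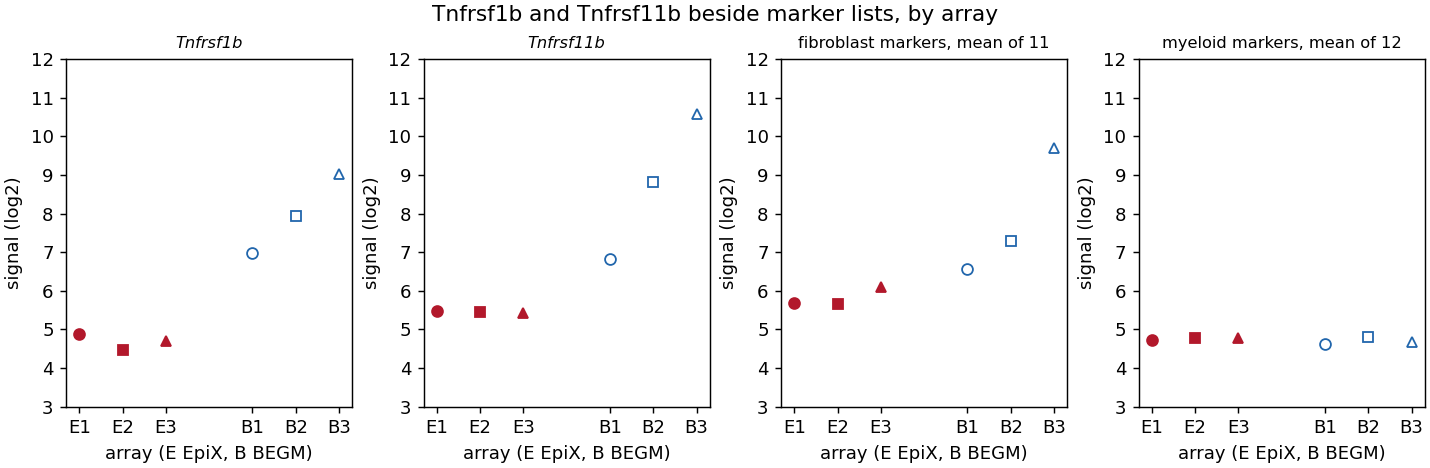
Signal (log2) of Tnfrsf1b and Tnfrsf11b and the mean signal of 11 fibroblast and 12 myeloid markers on each array, EpiX arrays 1 to 3 at the left and BEGM arrays 1 to 3 at the right of each panel. Both receptors and the fibroblast mean are lowest on array 1 and highest on array 3 among the BEGM arrays. The first principal component over all genes has the same order. The myeloid mean stays between 4.62 and 4.80, but 9 of its 12 markers were above the intron control median on no array, so it had little room to move.

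Tnfrsf12a encodes Fn14, the receptor for the ligand TWEAK (Tnfsf12). It was at 14.62, 14.80 and 14.51 in EpiX and at 15.07, 15.49 and 15.30 in BEGM, so the arrays of the media did not overlap. Its difference of -0.64 ± 0.17 (SE, n = 3 per medium) did not pass (adjusted p = 0.0743 by limma, 95% interval -1.04 to -0.25). Without BEGM array 1 it was -0.75 (adjusted p = 0.0331), and with each array centred on its median -0.52 (adjusted p = 0.114). Tnfsf12 itself was at 4.71, 4.80 and 4.68 in EpiX and at 5.17, 4.82 and 5.32 in BEGM. Its means, 4.73 ± 0.06 in EpiX and 5.10 ± 0.25 in BEGM (SD, n = 3 each), were close to the dim limit. The next gene to Tnfsf12 is Tnfsf13, the B cell factor APRIL, at 6.26, 6.26 and 5.76 in EpiX and 5.83, 6.01 and 5.94 in BEGM, which overlapped. Its receptor Tnfrsf17 had means of 4.15 in EpiX and 4.31 in BEGM.

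**Figure D3:**
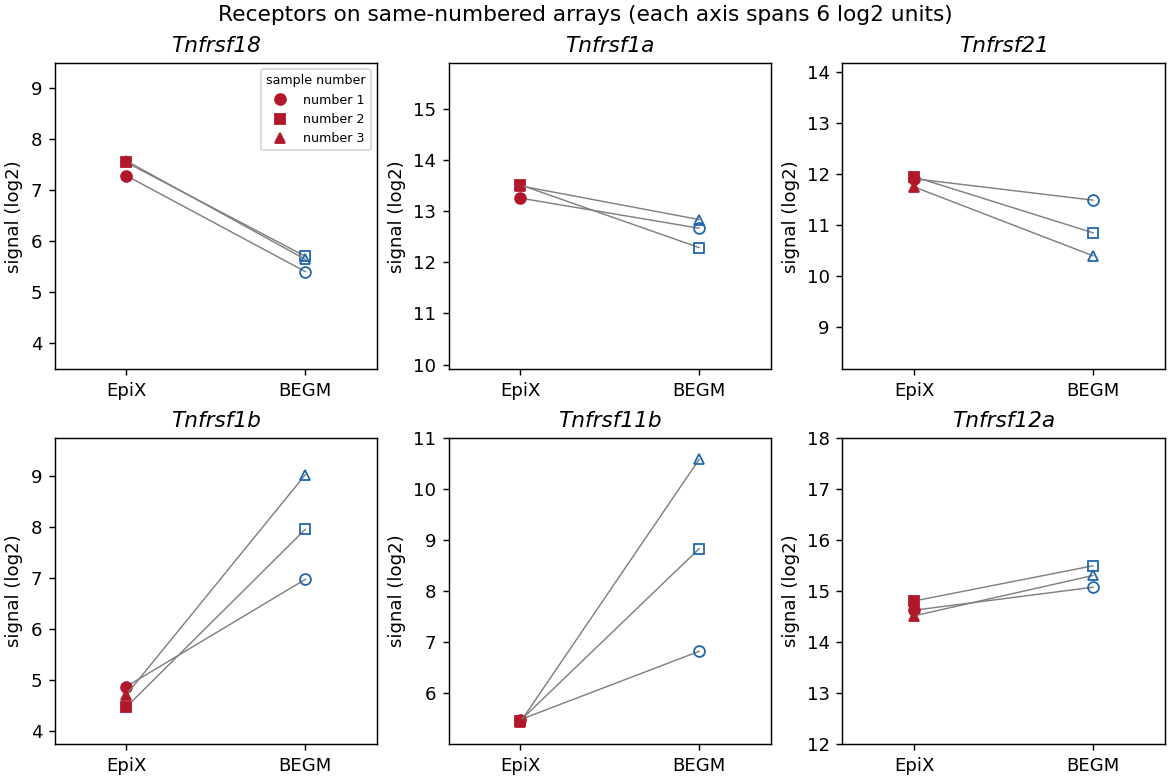
Signal (log2) of 6 receptors in EpiX (left) and BEGM (right), with a line joining arrays of the same sample number and each vertical axis spanning 6 log2 units. The lines for Tnfrsf18 are nearly parallel, at 1.88, 1.84 and 1.93, whereas those for Tnfrsf11b fan out, from -1.34 for number 1 to -5.15 for number 3.

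Fas, the death receptor for Fas ligand, was at 7.19, 7.46 and 7.29 in EpiX and at 7.32, 7.81 and 7.93 in BEGM. BEGM array 1 fell within the EpiX range, and the difference of -0.38 ± 0.20 (SE, n = 3 per medium) did not pass (adjusted p = 0.313 by limma, 95% interval -0.84 to 0.08). Its ligand Faslg was at 4.90, 4.94 and 4.87 in EpiX and at 4.90, 5.34 and 4.65 in BEGM, with no separation. The lymphotoxin beta receptor Ltbr, the gateway to the non-canonical NF-kB pathway, was at 9.55, 9.56 and 8.80 in EpiX and at 9.35, 8.71 and 9.07 in BEGM. It lies near Tnfrsf1a on chromosome 4, with 1 protein-coding gene between them, and unlike Tnfrsf1a its arrays overlapped between the media. Its ligands Ltb and Tnfsf14, known as LIGHT, averaged 3.23 ± 0.23 and 4.43 ± 0.07 in EpiX and 3.99 ± 0.69 and 4.62 ± 0.31 in BEGM (SD, n = 3 each).

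Ngfr, the low-affinity neurotrophin receptor of basal cells, was at 5.03, 5.03 and 5.37 in EpiX and at 4.69, 4.85 and 4.88 in BEGM. None of the 6 was above the intron control median. Although the arrays did not overlap, its difference of 0.34 ± 0.15 (SE, n = 3 per medium) did not pass (adjusted p = 0.253 by limma, 95% interval -0.02 to 0.71). Edar, the ectodysplasin receptor of skin appendages and glands, was at 5.20, 5.50 and 5.66 in EpiX and at 5.17, 5.08 and 5.09 in BEGM. Its difference was likewise 0.34 ± 0.16 (SE, n = 3 per medium; adjusted p = 0.274 by limma, 95% interval -0.04 to 0.72). Tnfrsf19, known as TROY, had means of 5.64 ± 0.25 in EpiX and 5.86 ± 0.17 in BEGM (SD, n = 3 each), with overlapping arrays.

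The remaining receptors are known mainly from lymphocytes. Tnfrsf9, the co-stimulatory receptor 4-1BB, was picked out after its values were seen. It was at 4.62, 4.36 and 4.10 in EpiX and at 4.88, 4.85 and 5.06 in BEGM, and its difference of -0.57 ± 0.17 (SE, n = 3 per medium) did not pass (adjusted p = 0.113 by limma). Its ligand Tnfsf9 averaged 4.17 in EpiX and 4.46 in BEGM, under the dim limit. Tnfrsf14, known as HVEM, averaged 4.85 ± 0.07 in EpiX and 5.03 ± 0.07 in BEGM (SD, n = 3 each), with no overlap between the arrays. Neither Tnfrsf9 nor Tnfrsf14 was above the intron control median on any array. Tnfrsf25, the receptor DR3, averaged 4.48 in EpiX and 4.45 in BEGM, and its ligand Tnfsf15 5.13 ± 0.29 in EpiX and 4.98 ± 0.19 in BEGM (SD, n = 3 each). Both co-stimulatory pairs of lymphocytes, Cd27 with its ligand Cd70 and Cd40 with Cd40lg, were dim in both media. Their means were 3.74, 3.67, 3.89 and 4.24 in EpiX and 3.67, 3.68, 3.96 and 3.91 in BEGM.

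Tnf, the founding ligand, was at 4.21, 4.48 and 4.25 in EpiX and at 5.94, 4.77 and 4.78 in BEGM. All EpiX arrays were under the dim limit, and of the BEGM arrays only array 1 was above the intron control median. The difference of -0.85 ± 0.32 (SE, n = 3 per medium) did not pass (adjusted p = 0.181 by limma, 95% interval -1.62 to -0.08), and without BEGM array 1 it was -0.46. The genes Lta and Ltb flank Tnf in the RefSeq order. Lta was dim on all arrays at means of 3.51 ± 0.12 in EpiX and 3.51 ± 0.08 in BEGM (SD, n = 3 each). Ltb was at 2.98, 3.44 and 3.26 in EpiX and at 3.37, 4.73 and 3.87 in BEGM, so only BEGM array 2 was above the dim limit.

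Tnfsf10, the death ligand TRAIL, was at 3.41, 3.82 and 3.73 in EpiX and 3.86, 3.95 and 3.76 in BEGM, dim on all 6 arrays (difference -0.20 ± 0.16, SE, adjusted p = 0.525 by limma). Tnfsf4, the OX40 ligand, was dim as well, at means of 3.88 in EpiX and 4.09 in BEGM. In all, 8 of 14 ligands and 5 of 20 receptors had means under the dim limit in both media. The differences of the ligands ran from -0.85 for Tnf to 0.33 for Cd40lg. None of these genes can be called absent from the cells.

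Counting the arrays rather than the test, 12 of 34 members (35.3%) had no overlap between the media, 10 receptors and 2 ligands, against 28.0% of all genes. The EpiX arrays were higher for 5 of them (13.5% of all genes) and lower for 7 (14.5%). A difference of at least 1 was found for 3 members, against 9.41% of all genes: Tnfrsf18, Tnfrsf1b and Tnfrsf11b. Centring each array on its median moved the median difference of all genes by 0.13 and changed the split of calls over all genes to 560 higher and 409 lower, against 395 higher and 474 lower as deposited. Under this scaling 5 members turned sign, all with a difference of at most 0.09 in size, and the same 3 members were called.

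**Figure D4:**
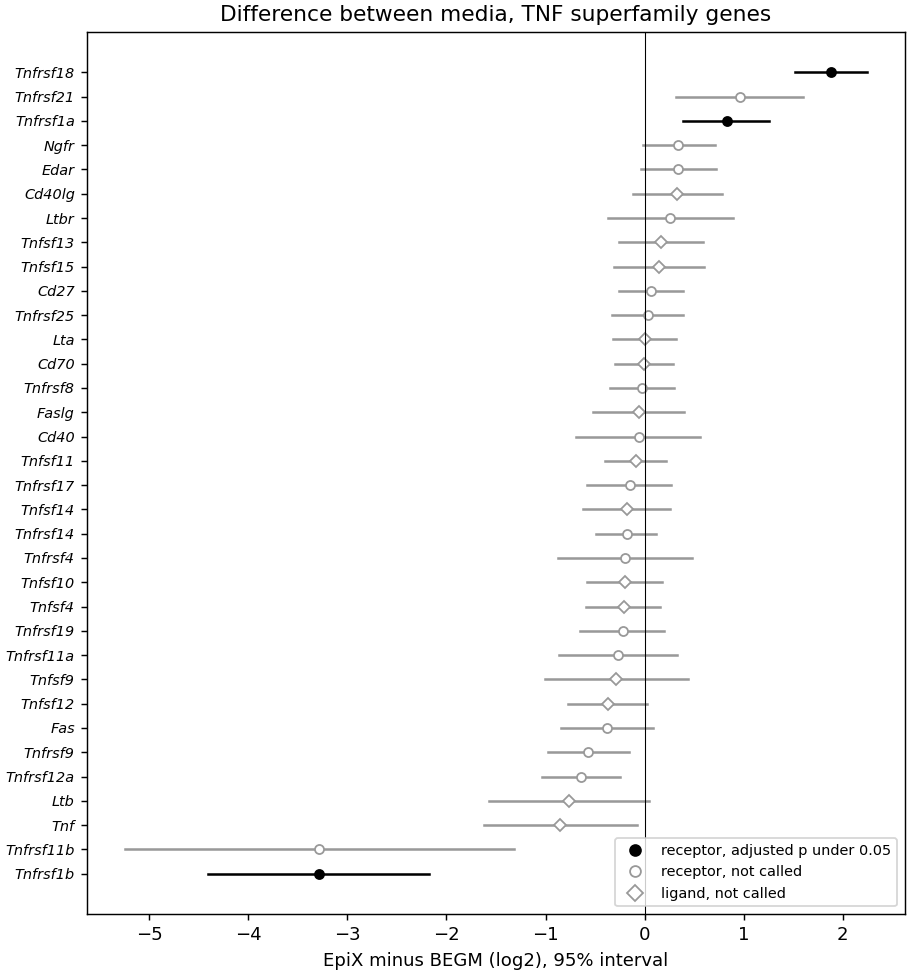
Difference EpiX minus BEGM (log2) of the 34 members with 95% intervals from limma, receptors as circles and ligands as diamonds, filled black where the adjusted p was under 0.05. Tnfrsf18 and Tnfrsf1a lie above 0 and Tnfrsf1b below it, and Tnfrsf11b has the widest interval, -5.25 to -1.32.

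Downstream of the receptors, 8 lists of pathway genes were counted, with 95 of 110 genes measured, Ltb among them. Of the 95 genes 1 rose, 10 fell and 84 did not pass, against 2.63% and 3.15% over all genes, with a median difference of -0.02. With 1 array left out, the numbers that rose and fell were 8 and 15 for BEGM array 1, 0 and 1 for BEGM array 2, 0 and 6 for BEGM array 3, and 0 with 2, 1 and 5 for EpiX arrays 1, 2 and 3. The ligand-shedding proteases and their partners had 0 calls among 6 by limma, with 1 at an unadjusted p under 0.05. Adam17, which releases TNF from the membrane, averaged 10.90 in EpiX and 10.20 in BEGM (adjusted p = 0.0849). Among 10 adaptors and TRAFs 1 rose, against 2.63% of all genes. It was Madd, a protein that binds the death domain of TNFR1. It was at 7.86, 7.88 and 8.09 in EpiX and 6.73, 7.24 and 7.04 in BEGM, a difference of 0.94 ± 0.18 (SE; adjusted p = 0.0301). No adaptor passed when any array other than BEGM array 1 was left out.

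The ubiquitin ligases and deubiquitinases that shape the receptor complexes had 0 calls among 11 by limma and the kinases leading to NF-kB and JNK 0 among 13, each list with 4 genes at an unadjusted p under 0.05. Their median differences were 0.07 and 0.24. In the death machinery 2 of 11 genes fell, against 3.15% of all genes. They were the mitochondrial pore protein Bak1, with means of 11.71 in EpiX and 12.39 in BEGM, and the initiator caspase Casp9, at 6.65 in EpiX and 7.36 in BEGM. Both act in the mitochondrial route to apoptosis. Casp8 and its inhibitor Cflar, which act at the death receptors themselves, averaged 12.41 and 14.16 in EpiX and 12.05 and 14.13 in BEGM and were not called. With each array centred on its median, or with any array other than BEGM array 1 left out, 0 of the 11 were called by limma.

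Among 7 NF-kB subunits and inhibitors 2 fell, against 3.15% of all genes. The main transactivating subunit Rela was at 13.63, 13.61 and 13.57 in EpiX and at 14.15, 14.45 and 14.46 in BEGM, a difference of -0.75 ± 0.14 (SE; adjusted p = 0.0321). The inhibitor Nfkbie was at 7.45, 7.64 and 7.95 in EpiX and at 9.02, 8.95 and 8.96 in BEGM, a difference of -1.30 ± 0.16 (SE; adjusted p = 0.00976). Both separated the media without overlap. Leaving out BEGM array 2 or EpiX array 2 left 0 of the 7 lower by limma, and BEGM array 3, EpiX array 1 or EpiX array 3 left 1. Nfkbia, an inhibitor whose own gene NF-kB induces, averaged 12.28 in EpiX and 11.58 in BEGM and was not called (adjusted p = 0.117).

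Of 30 genes known to be induced by TNF, 5 fell and 0 rose, against 3.15% and 2.63% of all genes. Their median difference was -0.50, against 0 over all genes. Those that fell were the monocyte chemokines Ccl2 and Ccl7, the neutrophil chemokine Cxcl1, the gelatinase Mmp9 and the cytokine Csf2. Csf2 was named after its values were seen. Ccl2 averaged 6.06 ± 0.65 in EpiX and 16.07 ± 1.36 in BEGM (SD, n = 3 each). Ccl7 was at 4.75, 4.57 and 4.75 in EpiX and at 7.57, 11.56 and 11.95 in BEGM, and BEGM array 1 was again the nearest to EpiX. Cxcl1 was at 10.03, 10.60 and 11.07 in EpiX and at 11.78, 12.45 and 12.28 in BEGM, a difference of -1.60 ± 0.30 (SE; adjusted p = 0.0303). Mmp9 averaged 4.62 in EpiX and 6.18 in BEGM, and Csf2 4.77 in EpiX and 6.01 in BEGM. In EpiX no array was above the intron control median for Ccl7, Mmp9 or Csf2.

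Among the 30 TNF-induced genes 11 differed by at least 1, against 9.41% of all genes, and all of these were lower in EpiX. The media did not overlap for 10 genes that were lower and 1 that was higher, against 14.5% and 13.5% of all genes. Csf1, Cxcl6, Cxcl2 and Lif were not called, at differences of -3.23, -2.14, -2.10 and -2.07. No gene of the list was higher in EpiX by more than 0.90. The mitochondrial dismutase Sod2 averaged 12.38 in EpiX and 12.18 in BEGM, Tnfaip2 12.95 in EpiX and 12.58 in BEGM, and Cxcl10 9.62 in EpiX and 8.71 in BEGM, and none of these was called. The number of genes that fell was 8 with BEGM array 1 left out, 1 with BEGM array 2, EpiX array 1 or EpiX array 2 left out, and 3 with EpiX array 3 left out. It was 9 with the sample number as a block. In the ectodysplasin pathway list 1 of 10 genes fell, against 3.15% of all genes. It was the growth factor Bmp4, which averaged 6.49 ± 1.12 in EpiX and 13.53 ± 2.34 in BEGM (SD, n = 3 each). Of this list 0 genes fell by limma with BEGM array 2, EpiX array 1 or EpiX array 2 left out, and 3 fell with BEGM array 1 left out. Bmp4 belongs to several other pathways too. The mean fibroblast marker signal given above was lower in EpiX as well. Across BEGM arrays 1 to 3 it rose, as did the mean of the ectodysplasin list, at 5.54, 6.18 and 6.58, and the first principal component. The mean of the TNF-induced list was instead highest on BEGM array 2, at 8.79, 9.57 and 9.22. The part of the fibroblast markers in these lists was not tested.

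**Figure D5:**
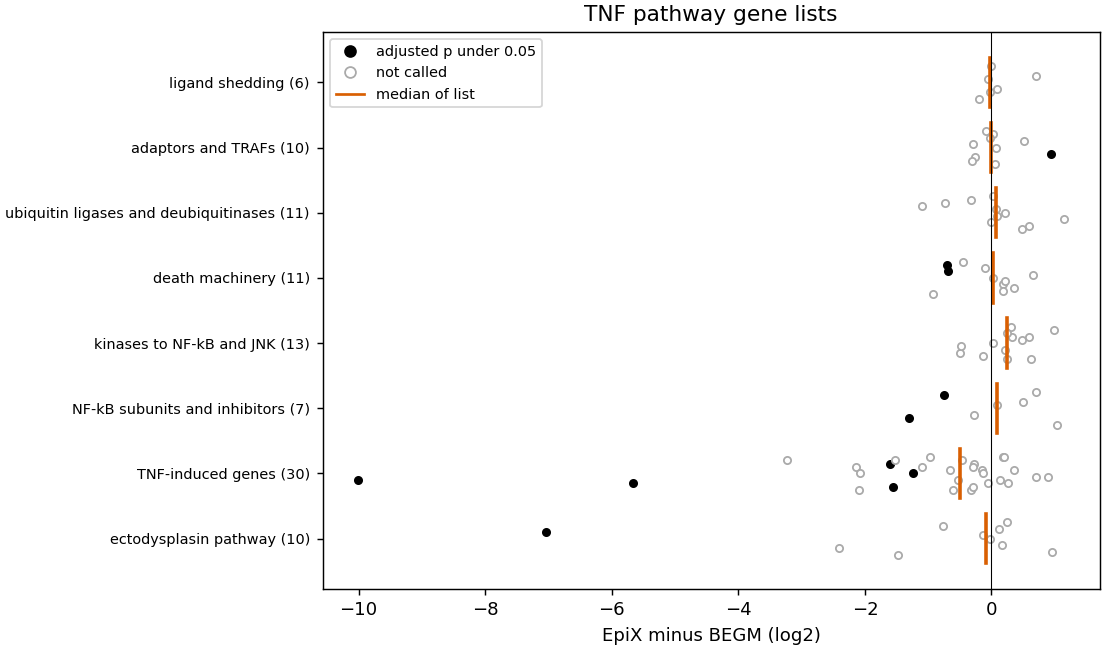
Difference EpiX minus BEGM (log2) of each measured gene of 8 pathway lists, black where the adjusted p was under 0.05, with an orange bar at each list's median and the number of genes in brackets. The medians lie between -0.50 for TNF-induced genes and 0.24 for the kinases, and Ccl2, Bmp4 and Ccl7 lie farthest to the left.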

How the data were processed

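The authors' deposited log2 values hold 1 signal for each of 24834 probe sets on 6 arrays. Per the submitters' processing notes, the Transcriptome Analysis Console was used. For its role and version, the normalization, any centring and the log base: not given in the sources used here. Values between 2.62 and 18.66 were read as log2. The number of arrays limits the precision. Genes were named through the platform annotation (15049 probe sets with 1 symbol, 9785 with none, 0 with several), and of several probe sets (10 genes) the brightest stood for the gene. All 34 member symbols matched the RefSeq table. The probe set names of 2 members, Tnf and Ltb, carry no chromosome.

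Medium was the single term of the model, fitted to all 15037 genes with limma 3.58.1 (lmFit, eBayes) in R 4.3.3, with no filter and no further normalization, p-values being 2-sided and adjusted by Benjamini-Hochberg. The fit was tested on simulated arrays with known changes. Plots used matplotlib 3.10.9. Members, lists and rules were chosen with earlier results of these data known. The difference, its SE and the adjusted p were given for members that were called, differed by at least 1 or were always named (Tnf, Tnfrsf1a, Fas, Ngfr, Tnfsf10, Tnfrsf11b, Tnfrsf12a, Edar), and for Tnfrsf21 and Tnfrsf9, added after their values were seen. Other members are given by their levels, per array or as means. Of each pathway list up to 4 called genes per direction were named, and uncalled pathway and marker genes were picked after their values were seen. Lists were counted, not tested.

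The sample number (1, 2 or 3) was taken as marking the line, since each line was divided between media, although no label ties a number to a line. The numbers are those of the source names: the titles of both arrays numbered 2 here carry a 3, and those of both numbered 3 carry none, which leaves the pairs as they are. After subtracting group means, arrays of 1 number correlated across genes at 0.32, -0.01 and 0.32, and arrays of unlike numbers at -0.37 to 0.16. Alternatives were the number as a fixed or random block, quantile normalization, median centring, no dim genes, a trended robust variance, array weights, the mean of probe sets, and leaving out arrays or numbers.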

Additional observations from a re-analysis of the deposited data

How the results depend on the processing

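All 12 members tested by name kept their direction under each of 17 alternatives (16 for Tnfsf10, which the filter on dim genes removed). Tnfrsf18 kept its call in 16 of 17 (adjusted p = 0.000928 to 0.189), Tnfrsf1b in 13 (0.00101 to 0.317) and Tnfrsf1a in 8 (0.0178 to 0.428). With the replicate number as a block 1 member was called higher, 2 lower, and 1252 genes over all, with 2 pathway genes higher and 14 lower. The block ended the call of Tnfrsf1a (adjusted p = 0.0598), gave one to Tnfrsf11b (0.0455) and changed no other member's call. Members called lower numbered 3 with a random block, 2 with a trended and robust variance and 3 with array weights. With array weights 3 members were higher, 1987 genes were called and 6 pathway genes were higher. Array weights also called Tnfrsf12a (adjusted p = 0.0471), which passed with the random block (0.0497) and the trended variance (0.0495). Leaving out single arrays or numbers gave 0 to 3 members higher, 0 to 3 lower, 0 to 2089 genes in all, 0 to 8 pathway genes higher and 0 to 15 lower. The zeros over all genes and for members higher came without number 2, where limma called 0 genes while 5 members and 1582 genes had an unadjusted p under 0.05. These fits also have fewer arrays, and the cause was not tested otherwise. Among members with small differences, up to 6 turned sign in a single alternative, none with a difference above 0.29 in size. No detection calls were used, so the limit for dim genes is a rank and not a background level.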
